A study of Mus musculus with 21 samples.

Results

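The expression of 9 genes that act in caveolae, in the diaphragms of fenestrae and in the control of transcytosis was followed in the endothelium of the embryonic brain and kidney. The genes were Plvap, Mfsd2a, Cav1, Cav2, Ptrf, Sdpr, Ehd2, Ehd3 and Ehd4, taken by symbol from the 23827 rows of each library, and all 9 were measured in every library. The rule names them by symbol and uses no measured value, but it was drawn up with earlier results of these data known.

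Endothelial cells carry large molecules across the vessel wall in vesicles, and a part of these vesicles forms from caveolae, small flask-shaped pits of the plasma membrane. Caveolins build the pit, cavins coat it, and EHD ATPases sit at membrane necks and on recycling endosomes. PLVAP forms the thin diaphragms that span fenestrae and caveolae of leaky vessels, whereas MFSD2A, a lysophospholipid transporter of brain endothelium, carries docosahexaenoic acid into the brain and is known to restrain caveolar transcytosis at the blood-brain barrier.

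RNA was sequenced from mouse embryos at embryonic day 14.5 in 21 libraries, 3 in each of 7 groups, and every embryo carried 1 copy of a Cre driver and 1 copy of Gt(ROSA)26Sor-mCherry-Rpl10a, an allele that tags ribosomes with mCherry once Cre has removed a stop cassette. Sox2Cre+/-, which recombines in all derivatives of the epiblast, gave the total RNA (transcriptome) and the ribosome-bound RNA (translatome) of forebrain and of kidney. Cdh5CreERT2+/-, a driver active in endothelium that is switched on by tamoxifen, given by oral gavage before harvest, gave the ribosome-bound RNA of brain endothelial cells (brain EC) and kidney endothelial cells (kidney EC). Emx1Cre+/- gave the ribosome-bound RNA of the Emx1-lineage, the neural cells of the dorsal telencephalon. The study pooled 2 brains in each brain library, 4 kidneys in each Sox2Cre kidney library and 6 kidneys in each kidney EC library. All brain EC libraries were sequenced in 1 lane and all kidney EC libraries in another, so that lane and organ cannot be told apart.

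Between 21760652 and 79231692 reads were counted on genes per library. The 12 endothelial markers, among them Cdh5 and Pecam1, had a summed RPKM of 3072 to 3184 in the brain EC and 2543 to 2948 in the kidney EC libraries, against 160.4 to 183.7 in the brain and 468 to 506 in the kidney translatome. RPKM, reads scaled by transcript length and library size, is a level per length and is the only scale on which genes are compared below. The endothelial libraries also held RNA of other cells. All 7 neural markers were read in brain EC, at a mean of 10.4% to 34.7% of their level in the brain translatome, and all 9 kidney lineage markers were read in kidney EC, at 7.92% to 30% of their level in the kidney translatome. These are bulk samples, in which fewer cells of a type and less RNA per cell cannot be told apart.

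In RefSeq on the GRCm38 build, Cav2 (chromosome 6, 17281185 to 17289130) and Cav1 (chromosome 6, 17306335 to 17341328) are neighbours, 17204 bases apart. The other genes lie on 7 different chromosomes: Mfsd2a on chromosome 4 (122946850 to 122961194), Plvap on chromosome 8 (71497753 to 71511806), Ptrf (Cavin1 in RefSeq) on chromosome 11 (100956736 to 100970617), Sdpr (Cavin2 in RefSeq) on chromosome 1 (51289126 to 51302960), Ehd2 on chromosome 7 (15946963 to 15967535), Ehd3 on chromosome 17 (73804841 to 73832093) and Ehd4 on chromosome 2 (120089487 to 120154575). Plvap overlaps Gtpbp3 over 1872 bases and Gm46041 over 2861 bases, Sdpr lies within the noncoding gene 9330175M20Rik, and Ehd2 overlaps the noncoding gene Gm24576 over 828 bases. The library kit does not mark strand, so reads in these overlaps cannot be assigned to one gene, and the values of Plvap, Sdpr and Ehd2 are uncertain to that extent.

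The 250 bases before the first listed transcription start are shown for Mfsd2a, Cav1, Cav2 and Ehd3, the neighbours Cav1 and Cav2 because their levels were alike over the 21 libraries and Mfsd2a and Ehd3 because each was not enriched in 1 of the 2 endothelial groups. They were read from RefSeq promoter records of GRCm38, which matched 8 of the 9 genes, and run 5′ to 3′ on the strand of the gene. Capitals mark GGAA or its complement TTCC, the core of ETS factor motifs, searched on both strands.
Mfsd2a (chr4:122961189-122961438, - strand): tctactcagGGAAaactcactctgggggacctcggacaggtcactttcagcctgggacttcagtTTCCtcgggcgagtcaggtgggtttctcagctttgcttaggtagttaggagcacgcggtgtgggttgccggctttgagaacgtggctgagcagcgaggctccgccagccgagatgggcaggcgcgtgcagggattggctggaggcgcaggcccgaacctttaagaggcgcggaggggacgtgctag
Cav1 (chr6:17306085-17306334, + strand): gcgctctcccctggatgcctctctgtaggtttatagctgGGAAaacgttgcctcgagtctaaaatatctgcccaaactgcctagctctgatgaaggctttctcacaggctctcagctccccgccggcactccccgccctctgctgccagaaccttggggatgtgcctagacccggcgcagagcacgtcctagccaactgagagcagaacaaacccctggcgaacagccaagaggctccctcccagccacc
Cav2 (chr6:17280935-17281184, + strand): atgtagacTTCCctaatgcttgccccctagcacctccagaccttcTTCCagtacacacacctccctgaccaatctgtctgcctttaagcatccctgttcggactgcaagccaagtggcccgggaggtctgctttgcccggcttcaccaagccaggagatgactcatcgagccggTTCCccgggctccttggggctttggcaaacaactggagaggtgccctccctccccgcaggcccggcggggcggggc
Ehd3 (chr17:73804591-73804840, + strand): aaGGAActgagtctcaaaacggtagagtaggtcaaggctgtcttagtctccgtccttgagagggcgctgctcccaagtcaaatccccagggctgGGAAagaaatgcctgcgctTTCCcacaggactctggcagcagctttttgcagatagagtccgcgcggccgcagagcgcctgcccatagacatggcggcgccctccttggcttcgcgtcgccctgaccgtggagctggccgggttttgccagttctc
The core occurred 2 times before Mfsd2a, 1 time before Cav1, 3 times before Cav2 and 3 times before Ehd3. It was present in 93.4% of all 32851 promoter windows of this length, with a median of 3 matches, so its presence does not set these genes apart. The window before Ehd2 held no match.

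In brain EC the mean RPKM ran from 197.9 for Ptrf and 190.1 for Cav1 down to 12.9 for Sdpr and 7.39 for Ehd3, and in kidney EC from 419 for Plvap down to 0.418 for Mfsd2a.

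**Figure D1:**
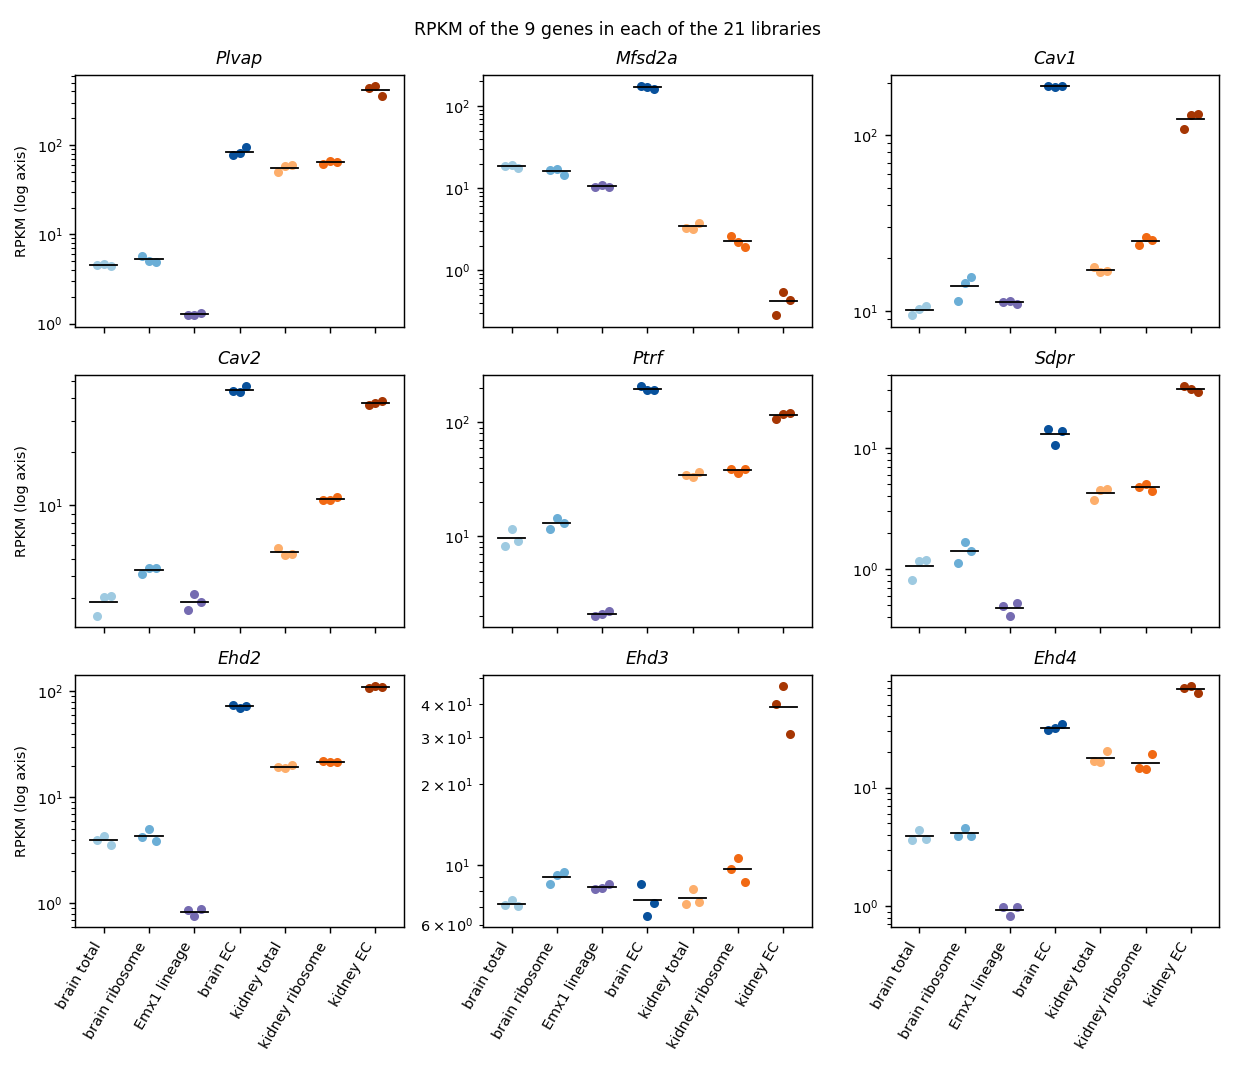
RPKM (log axis) of each gene in the 21 libraries, as points by group, with a line at the mean of the 3 libraries; total is the transcriptome and ribosome the translatome of the Sox2Cre embryos. Plvap was highest in kidney EC and Mfsd2a in brain EC. The Ehd3 libraries of kidney EC sit between 30.8 and 46.4, above all other libraries of that gene.

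Brain EC and kidney EC were compared to ask how the genes differ between the endothelium of the embryonic brain and that of the embryonic kidney. The paper describes brain endothelium in general as a tight barrier and kidney endothelium as fenestrated. Whether they had these features in the embryos used was not tested. Plvap, Ehd3, Sdpr, Ehd4 and Ehd2 were lower in brain EC, and Mfsd2a, Ptrf and Cav1 were higher. Of the 9 genes, 3 were called higher and 5 lower at an adjusted p under 0.001 (edgeR quasi-likelihood test, Benjamini-Hochberg adjustment over all genes), and Cav2 was not called. Over all 19238 genes tested 37% were called, 20.1% higher and 16.9% lower. The median log2 fold change was -0.55 over the 9 genes and 0.01 over all genes. The calls were the same when any 1 library was left out. Overlap of groups is described for single genes here and in the later comparisons. The share of all genes without overlap was not counted, so a lack of overlap does not set these genes apart.

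Plvap, the gene of the diaphragm protein, was at 78.1, 80.6 and 94.4 RPKM in the 3 brain EC libraries and at 439.5, 460.2 and 357 RPKM in the 3 kidney EC libraries. The lowest kidney library was far above the highest brain library. The log2 fold change was -2.27 ± 0.11 (SE, n = 3 and 3), a 4.81-fold lower level in brain EC, with an adjusted p of 2.5e-08 (edgeR). In RPKM Plvap was higher in brain EC than in the whole kidney translatome, where its 3 libraries were at 61.3 to 66.4. The geometric mean of the 12 endothelial markers also differed, at 208.9 RPKM in brain EC and 30.6 RPKM in the kidney translatome. Set against this geometric mean in the same library, Plvap was at a ratio of 0.404 ± 0.039 (SD, n = 3) in brain EC. The ratio was 2.33 ± 0.17 in kidney EC and 2.10 ± 0.07 in the kidney translatome (SD, n = 3 each), both above brain EC.

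Mfsd2a showed the opposite and a larger difference. Its RPKM was 176.1, 171.6 and 162 in brain EC and 0.283, 0.54 and 0.43 in kidney EC, where it rested on 27, 38 and 38 reads. The groups did not overlap, and the fitted log2 fold change was 8.74 ± 0.15 (SE, n = 3 and 3) with an adjusted p of 2.4e-11 (edgeR). In kidney EC Mfsd2a was at 18.6% of its level in the kidney translatome, and the kidney lineage markers were at 7.92% to 30%. The part of RNA of other cells in these few Mfsd2a reads was not tested. Within a library Plvap was 0.499 ± 0.074 (SD, n = 3) times as abundant as Mfsd2a in brain EC and 1079 ± 411 (SD, n = 3) times in kidney EC.

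Of the 2 caveolins 1 was called between the endothelial groups. Cav1, the main structural protein of caveolae, was at 190.1, 189 and 191.3 RPKM in brain EC and 109, 130.1 and 132.8 RPKM in kidney EC. All 3 brain libraries were above all 3 kidney libraries, with a log2 fold change of 0.66 ± 0.08 (SE, n = 3 and 3) and an adjusted p of 5.1e-05 (edgeR). This call was lost when the libraries were scaled by the 12 endothelial markers (0.39, adjusted p = 0.0067). Cav2, which forms mixed oligomers with CAV1, was at 43.7, 43.1 and 46.8 RPKM in brain EC and 36.9, 37.4 and 38.6 RPKM in kidney EC. The groups did not overlap, but the difference of 0.29 ± 0.06 on the log2 scale (SE, n = 3 and 3) had an adjusted p of 0.0030 (edgeR) and missed the threshold. Its interval of ± 2 SE ran from 0.16 to 0.42, and DESeq2 (adjusted p = 2.5e-04) and a single fit of all 21 libraries (adjusted p = 7.4e-05) called it. Relative to the endothelial markers Cav2 was at 0.213 ± 0.008 in brain EC and 0.211 ± 0.017 in kidney EC (SD, n = 3 each).

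The 2 cavins moved in opposite directions. Ptrf, the cavin without which caveolae do not form, was at 207.5, 193.4 and 192.8 RPKM in brain EC and 106.6, 117.3 and 121.3 RPKM in kidney EC. Its log2 fold change was 0.83 ± 0.08 (SE, n = 3 and 3), with an adjusted p of 4.4e-06 (edgeR). Sdpr, a cavin that takes part in shaping the membrane of the pit, was at 14.2, 10.6 and 13.9 RPKM in brain EC and 32.2, 30.5 and 28.7 RPKM in kidney EC, a log2 fold change of -1.19 ± 0.10 (SE, n = 3 and 3) with an adjusted p of 2.8e-06 (edgeR). In neither Ptrf nor Sdpr did the groups overlap. The ratio of Ptrf to Sdpr RPKM was 15.5 ± 2.3 in brain EC and 3.79 ± 0.46 in kidney EC, whereas that of Ptrf to Cav1 was 1.04 ± 0.04 and 0.931 ± 0.041 (SD, n = 3 each).

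The 3 EHD genes were all lower in brain EC. Ehd2, whose protein stabilizes caveolae at the cell surface, was at 74.3, 70.2 and 73.6 RPKM in brain EC and 107.1, 111.6 and 109.3 RPKM in kidney EC, with a log2 fold change of -0.55 ± 0.06 (SE, n = 3 and 3). Ehd4, an EHD protein of endosomal traffic, was at 30.5, 31.9 and 34.2 RPKM against 70.1, 71.6 and 62.7 RPKM, a log2 fold change of -1.04 ± 0.07 (SE, n = 3 and 3). Ehd3, which acts in recycling from endosomes, was at 8.48, 6.48 and 7.2 RPKM against 39.9, 46.4 and 30.8 RPKM, a log2 fold change of -2.35 ± 0.14 (SE, n = 3 and 3). The adjusted p-values were 2.5e-05 for Ehd2, 5.4e-07 for Ehd4 and 1.2e-07 for Ehd3 (edgeR).

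**Figure D2:**
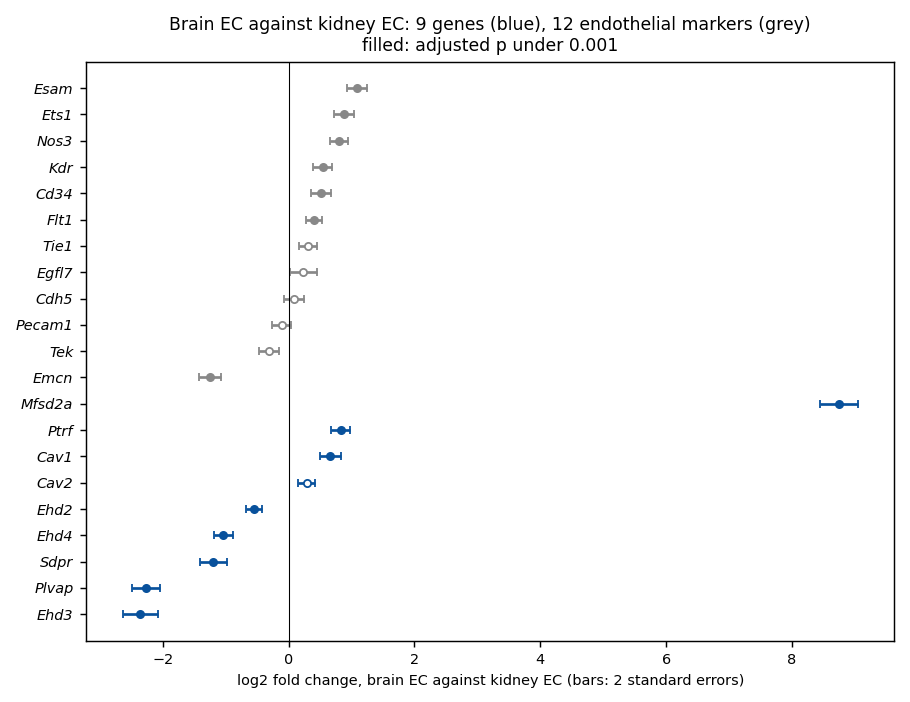
Log2 fold change of brain EC against kidney EC (n = 3 each) for the 9 genes in blue and the 12 endothelial markers in grey, with bars of 2 standard errors and filled points for an adjusted p under 0.001. Mfsd2a lies at 8.74 and Plvap and Ehd3 at -2.27 and -2.35, while the endothelial markers have a median of 0.35.

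Markers of other cells differed between the 2 endothelial groups as well. The 12 endothelial markers were called higher in brain EC in 6 cases and lower in 1. Of 3 lymphatic endothelial markers 1 was higher and 2 were lower (summed RPKM 42.7 to 44.8 against 72.4 to 82.3). Of 11 mural markers 8 were lower in brain EC (summed RPKM 43.5 to 51.4 against 134 to 149.8), of 9 kidney lineage markers 8 were lower (11.1 to 14.2 against 81.2 to 101.7), and all 3 podocyte markers were lower (5.79 to 7.66 against 32.1 to 45.7). All 7 neural markers were higher in brain EC (437.6 to 560 against 15.4 to 16.8), and 1 of them was at 0 in all kidney EC libraries. Of 6 fibroblast markers 4 were lower and 2 higher (150.8 to 244.9 against 349.9 to 505.8), and 2 of 5 macrophage markers were higher (7.85 to 9.16 against 3.32 to 3.64). The 3 mesothelial markers were lower at summed levels of at most 1.38 RPKM in either group. Of 7 red cell markers 3 were at 0 in both groups, 1 (Hbb-y) was higher in brain EC and 3 were not called. The summed RPKM of the red cell markers was 84.4 to 107.7 in brain EC against 35.8 to 44.97 in kidney EC. The part of these cells in the differences of the 9 genes was not tested.

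Genes that act beside these 9 were counted from lists. Of 12 caveola partners 4 were higher in brain EC, 3 lower and 5 not called, with a median log2 fold change of 0.20. The higher ones included Pacsin1 (4.51), an F-BAR protein of neurons, and the dynamins Dnm3 (1.71) and Dnm1 (1.55), while Flot2 (-0.51), a flotillin, and Pacsin2 (-0.42), a membrane-bending partner of caveolae, were lower. Of 14 transcytosis receptors 7 were higher, 6 lower and 1 not called, with a median of 0.38. Among them the lipoprotein receptors Lrp8 (4.42) and Lrp1 (1.74) and the insulin receptor Insr (1.49) were higher, and Gpihbp1 (-3.13), which carries lipoprotein lipase across capillaries, Lrp2 (-2.62) and Ager (-1.46) were lower. Of 12 genes of vesicle docking and fusion 2 were higher, Vamp2 (1.26) and Rab5b (0.54), and 10 were not called, with a median of 0.14. Of 15 genes of fatty acid handling 5 were higher and 5 lower, with a median of 0.11. The fatty acid binding protein Fabp7 (8.43) and the acyl-CoA ligases Acsl6 (4.72) and Acsl1 (1.19) were higher, and Fabp4 (-12.78), Fabp5 (-3.83) and the fatty acid translocase Cd36 (-3.43) were lower. The values in parentheses are log2 fold changes of brain EC against kidney EC from the same fit. Against the whole brain translatome, brain EC had 3 caveola partners higher and 5 lower (median log2 fold change -0.61), 13 transcytosis receptors higher and 0 lower (1.74), 6 genes of vesicle docking and fusion higher and 2 lower (0.31) and 2 genes of fatty acid handling higher and 6 lower (-0.31). Of the genes named as higher in brain EC than in kidney EC, Pacsin1 (-1.15), Dnm1 (-1.37), Vamp2 (-1.78), Fabp7 (-2.34) and Acsl6 (-2.02) were lower in brain EC than in the brain translatome, Dnm3 (-0.12) and Rab5b (-0.10) were not called there, and Lrp8 (1.67), Lrp1 (1.04), Insr (1.26) and Acsl1 (1.86) were higher. All 7 neural markers moved with the first group in both comparisons, and the part of neural RNA in the values of these genes was not tested.

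Each endothelial translatome was then compared with the translatome of its whole organ, which asks where the 9 genes were enriched in endothelium. In brain EC 8 of the 9 genes were higher than in the brain translatome and Ehd3 was not called, beside a background of 46.2% of all genes tested called, 24.8% called higher and 21.4% called lower. The log2 fold changes of the 8 genes ran from 3.25 for Ehd4 to 4.36 for Ehd2, with 4.29 for Plvap, 4.21 for Ptrf, 4.04 for Cav1, 3.68 for Mfsd2a, 3.65 for Cav2 and 3.51 for Sdpr, each with an SE of at most 0.15. The 12 endothelial markers had a median of 4.52. Ehd3 had a log2 fold change of -0.00 (adjusted p = 0.99 by edgeR) with an interval of ± 2 SE from -0.20 to 0.19. Its mean RPKM in brain EC, a scale with no composition factor, was 81.7% of that in the brain translatome. A fit with no composition factor moved the median of all genes by -0.30. Ehd3 was not called there either, at an unadjusted p under 0.05 (edgeR). The neural markers, all 7 lower in brain EC than in the brain translatome, stood at 10.4% to 34.7%, and the part of neural RNA in the Ehd3 reads was not tested. Of 6 fibroblast markers 5 were higher in brain EC, at a summed RPKM of 150.8 to 244.9 against 114.8 to 132, with a median log2 fold change of 0.84, and their part in the enrichment of the 9 genes was not tested.

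In kidney EC 8 of the 9 genes were higher than in the kidney translatome and Mfsd2a was lower, beside a background of 31.7% called, 16.7% higher and 15% lower. The log2 fold changes ran from 1.96 for Ptrf to 3.06 for Plvap, with 3.04 for Sdpr, 2.69 for Ehd2, 2.66 for Cav1, 2.43 for Ehd4, 2.37 for Ehd3 and 2.15 for Cav2. Mfsd2a had -2.09 ± 0.25 (SE, n = 3 and 3) with an adjusted p of 3.0e-05 (edgeR). The 12 endothelial markers had a median of 3.01, and all 9 kidney lineage markers were lower. The 3 podocyte markers were higher in kidney EC than in the kidney translatome, at a summed RPKM of 32.1 to 45.7 against 13.3 to 19, and their part in the enrichment of any of the 9 genes was not tested.

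The enrichment itself differed between the organs for 8 of the 9 genes, 7 of them more enriched in brain and Ehd3 more enriched in kidney (interaction in a fit of 12 libraries, adjusted p under 0.001), beside a background of 25.1% called, 16.5% higher and 8.6% lower. The difference in log2 fold change, brain minus kidney, was 5.82 for Mfsd2a, 2.28 for Ptrf, 1.69 for Ehd2, 1.53 for Cav2, 1.41 for Cav1, 1.26 for Plvap, 0.85 for Ehd4 and -2.34 for Ehd3. It was 0.49 ± 0.18 (SE) for Sdpr, with an adjusted p of 0.040 (edgeR). All 12 endothelial markers were also more enriched in brain, with a median difference of 1.55, and the median over all genes was 0.15. The endothelial markers were lower in the brain than in the kidney translatome in 11 of 12 cases. Mfsd2a, Ptrf and Ehd2 were above the marker median and the other 6 genes below it.

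**Figure D3:**
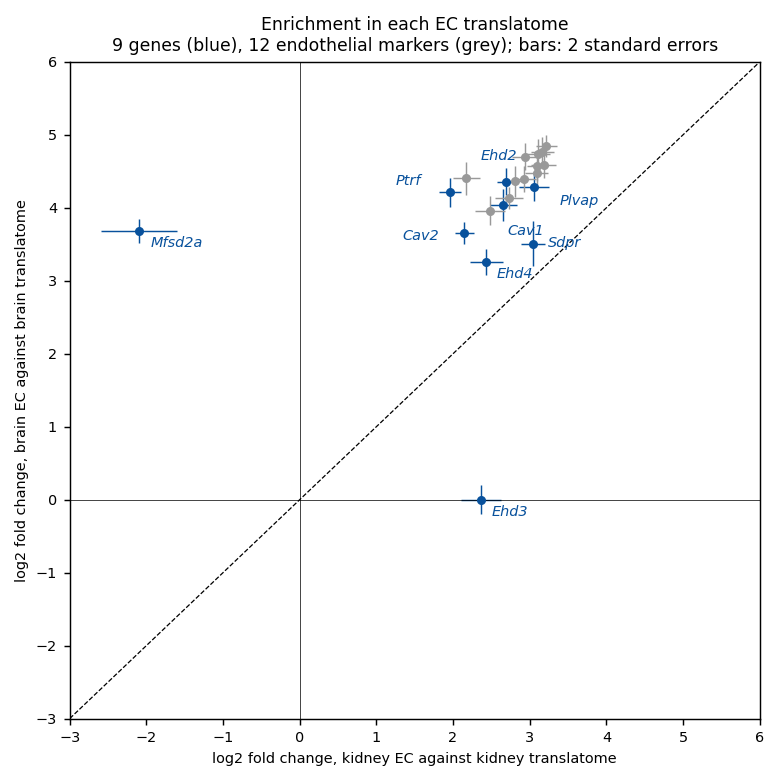
Log2 fold change of brain EC against the brain translatome (vertical axis) and of kidney EC against the kidney translatome (horizontal axis) for the 9 genes in blue and the 12 endothelial markers in grey, with bars of 2 standard errors and a dashed line of equality. Ehd3 lies at 0 on the brain axis and 2.37 on the kidney axis, and Mfsd2a at 3.68 and -2.09. The other genes lie above the line.

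In the whole organs the order of the 2 endothelial groups held for some genes and not for others. The brain translatome had less Plvap (log2 fold change -3.40), Ehd2 (-2.12), Ehd4 (-1.77), Sdpr (-1.56), Ptrf (-1.34), Cav2 (-1.13) and Cav1 (-0.63) than the kidney translatome and more Mfsd2a (3.04), so that 8 of the 9 genes were called beside a background of 53.4%. Ptrf and Cav1 were thus lower in the brain translatome and higher in brain EC than in the kidney counterpart. Ehd3 did not pass the test (0.11, adjusted p = 0.30 by edgeR), and its levels were 8.5, 9.17 and 9.46 RPKM in the brain and 9.67, 10.7 and 8.65 RPKM in the kidney translatome, which overlap. In total RNA the same 8 genes were called in the same directions, beside a background of 53.5%, with log2 fold changes from -3.43 for Plvap to 2.62 for Mfsd2a, and Ehd3 again was not (0.12, adjusted p = 0.17). The sign of the Ehd3 value turned in both comparisons when total counts were used with no composition factor (-0.09 and -0.06), a scaling that moved the median of all genes by -0.19 and -0.18.

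The mix of the 3 EHD genes also differed by group. Ehd3 made up 6.57% ± 0.81 of their summed RPKM in brain EC and 17.9% ± 2.5 in kidney EC, against 51.7% ± 3.0 in the brain translatome, 20.4% ± 2.7 in the kidney translatome and 82.5% ± 1.2 in the Emx1-lineage (SD, n = 3 each). Ehd2 was the largest share in both endothelial groups, 64.7% ± 0.8 in brain EC and 50.6% ± 2.9 in kidney EC (SD, n = 3 each).

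**Figure D4:**
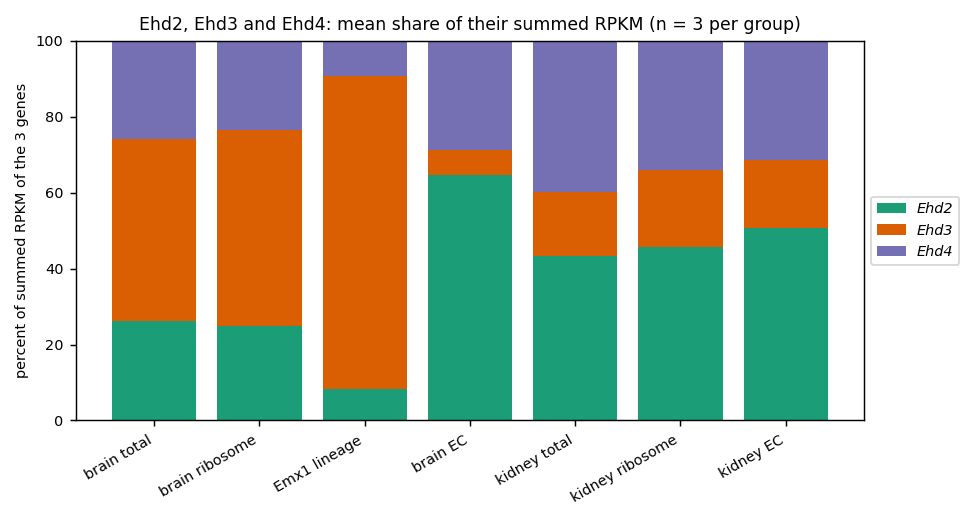
Mean percent of the summed RPKM of Ehd2, Ehd3 and Ehd4 that each gene holds in the 7 groups (n = 3 each), stacked to the whole. Ehd3 is the largest part in the Emx1-lineage (82.5%) and the smallest in brain EC (6.57%).

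The Emx1-lineage translatome was used to ask how much of each gene was read where the driver marks neural cells of the dorsal telencephalon and not endothelium. Compared with the brain translatome 7 of the 9 genes were lower and none higher, beside a background of 22.1% called, 9.2% higher and 12.8% lower. All 12 endothelial markers were lower, and their mean RPKM was 2.69% to 22.2% of that in the brain translatome, with a median of 6.80%, so these markers were still read in the Emx1-lineage libraries. Markers of other cells outside the lineage fell as well, with 9 of 11 mural markers (summed RPKM 17.3 to 19.7 against 64.5 to 80.7), all 6 fibroblast markers (28.5 to 35.2 against 114.8 to 132) and all 5 macrophage markers (1.28 to 1.61 against 16.3 to 18.9) lower, and the part of each cell type in the fall of the 9 genes was not tested. Ptrf kept 16.0%, Ehd2 19.2%, Ehd4 22.5%, Plvap 24.2% and Sdpr 33.9%. Their log2 fold changes were -2.58, -2.31, -2.08, -1.995 and -1.47.

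The other 4 genes kept more. Mfsd2a was at 10.3, 10.9 and 10.5 RPKM in the Emx1-lineage against 16.8, 17.2 and 14.6 RPKM in the brain translatome, 65.2% of the level, with a log2 fold change of -0.56 ± 0.07 (SE, n = 3 and 3) and an adjusted p of 8.5e-06 (edgeR). Cav1 was at 11.2, 11.4 and 11 RPKM against 11.4, 14.4 and 15.7 RPKM, 80.9% of the level, and the difference did not pass the test (-0.27, adjusted p = 0.024 by edgeR). The highest Emx1-lineage library lay just under the lowest brain library, and without brain translatome replicate 1, the lowest, the difference was called (-0.40, adjusted p = 5.3e-04). Cav2 was at 2.57, 3.19 and 2.88 RPKM against 4.1, 4.47 and 4.44 RPKM, 66.4% of the level, and its call (-0.55, adjusted p = 4.0e-04 by edgeR) was lost without any 1 of the 3 brain translatome replicates or of Emx1-lineage replicates 1 and 3, at adjusted p-values from 0.0011 to 0.0031. Ehd3 was at 8.13, 8.24 and 8.49 RPKM, 91.6% of its level in the brain translatome, and did not pass the test (-0.07, adjusted p = 0.38 by edgeR).

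Within the Emx1-lineage the caveolin and cavin levels stood apart. The ratio of Ptrf to Cav1 was 0.187 ± 0.011 there, against 0.952 ± 0.103 in the brain translatome and 1.04 ± 0.04 in brain EC (SD, n = 3 each), while the ratio of Cav1 to Cav2 was 3.92 ± 0.39, against 3.18 ± 0.37 and 4.27 ± 0.16 (SD, n = 3 each). The highest Ptrf to Cav1 ratio in the Emx1-lineage, 0.201, was below the lowest in the brain translatome, 0.833.

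**Figure D5:**
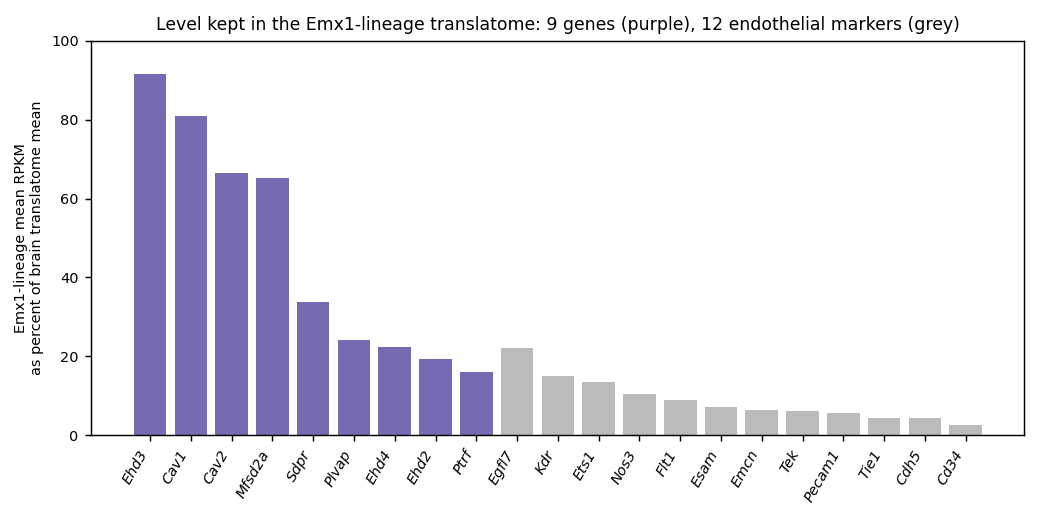
Mean RPKM in the Emx1-lineage translatome as percent of the mean in the brain translatome (n = 3 each, a ratio of means with no error bar), for the 9 genes in purple and the 12 endothelial markers in grey. Ehd3, Cav1, Cav2 and Mfsd2a stand at 65.2% to 91.6%, above the highest endothelial marker at 22.2%.

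Translatome and transcriptome were compared within each organ to ask which of the transcripts were more or less associated with ribosomes than their total level. In brain Cav2 (0.63), Cav1 (0.51) and Ehd3 (0.36) were higher in the translatome, on the log2 scale, and the other 6 genes were not called, beside a background of 37.1% called, 18.6% higher. In kidney Cav2 (1.00) and Cav1 (0.55) were higher and 7 genes were not called, beside a background of 30.7%, 14.9% higher and 15.8% lower. Transcriptome and translatome libraries of the same number came from the same tissue, and a fit with that pairing also called Ptrf higher in brain (0.47, adjusted p = 1.5e-07). In kidney it also called Plvap (0.20, adjusted p = 1.0e-06), Ehd2 (0.17, adjusted p = 5.6e-04) and Ehd3 (0.36, adjusted p = 7.3e-11) higher and Mfsd2a lower (-0.60, adjusted p = 2.1e-08). Over all genes the paired fit called 4499 higher and 4433 lower of 19446 tested in brain. In kidney it called 4636 higher and 4860 lower of 19336 tested, more than the unpaired fit. The 3 brain calls of the unpaired fit depended on single libraries: none was left without brain translatome replicate 2 or without replicate 3, and only that of Cav2 was left without brain transcriptome replicate 1.

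In the unpaired fit Cav1 and Cav2 were the genes called in both organs, and the fit with the pairing called Ehd3 in both as well. Cav2 stood at 2.4, 3.06 and 3.11 RPKM in the brain transcriptome against 4.1, 4.47 and 4.44 RPKM in the translatome, and at 5.78, 5.27 and 5.3 RPKM against 10.8, 10.7 and 11.2 RPKM in kidney, with no overlap in either organ. Whether this ribosome association differed from one organ to the other was tested as an interaction, without the pairing by tissue. It was called for 0 of the 9 genes by edgeR, beside a background of 6.47%. An interaction fit with the pairing held within each organ was not run, so whether it would call any gene was not tested. At an unadjusted p under 0.05 (edgeR) there were 3, Mfsd2a (0.42), Cav2 (-0.39) and Ptrf (0.32), beside 6654 of all 20108 genes tested. DESeq2 also called 0 of the 9 genes at the adjusted threshold.

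The genes whose pattern was most like that of Plvap, Mfsd2a and Cav1 were found by Pearson's r of log2(RPKM + 1) over the 21 libraries among 11841 rows with a mean RPKM of at least 5 in some group. For Plvap they were Gimap4, Pdia5, Cd38, Tor4a and Kctd12b (r from 0.998 to 0.995), for Mfsd2a Slc1a4, Abhd2, Gpcpd1, Pde4dip and Apcdd1 (r from 0.989 to 0.972) and for Cav1 Grrp1, Dhh, Kcna5, Cav2 and Nos2 (r from 0.990 to 0.987). Gimap4, for example, was at a mean of 48.3 RPKM in brain EC and 274 RPKM in kidney EC, and the amino acid transporter gene Slc1a4 at 118.9 and 4.07 RPKM. The libraries share groups, lanes and depth, and a pseudocount of 0.1 kept 4 of the 5 genes for Plvap, 2 for Mfsd2a and 2 for Cav1.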

How the data were processed

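RNA-seq libraries (TruSeq, unstranded) of 21 samples were analysed. The deposited files hold, for each gene, the read count, without normalization, and the RPKM: the authors mapped reads with RUM to GRCm38 and computed both with rpkmforgenes on refGene. The files list 23827 rows, of which 738 repeat a symbol, and the row with the most reads stood for a repeated symbol. Totals ranged from 21760652 to 79231692 reads, and precision is given as the SD of RPKM or the SE of a log2 fold change over 3 samples.

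The main test was the quasi-likelihood test of edgeR 4.0.16 (R 4.3.3) with TMM factors, on the 6 samples of a comparison, or 12 for an interaction, over all genes with at least 1 read, with Benjamini-Hochberg adjustment and a threshold of 0.001. The authors used DESeq. Alternatives were DESeq2 1.42.0, relative log expression factors, no composition factor, at least 10 reads in 3 samples, a fit of all 21 samples, one row per symbol, scaling by endothelial markers, a replicate block and each library left out. Tables and figures were made in Python 3.11.15 with numpy 2.4.6, pandas 2.3.3 and matplotlib 3.10.9.

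The 9 genes and all lists were chosen with earlier results of these data known. Of the other lists, the 3 genes with the largest change among those called in each direction with a mean RPKM of at least 1 in an endothelial group were named, or all where fewer were called, and for 3 genes the 5 most alike. Ehd1, Cav3, Prkcdbp and Murc were named as family members of the 9 genes after their values were seen. Marker lists are given as counts and summed levels. Replicates differed beyond sampling noise in all 21 pairs, and none was merged. The study lists the replicates of a group as separate pools of tissue.

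Same-numbered samples were checked for pairing by correlating their deviations from group means. The correlations were 0.469 to 0.605 between brain translatome and transcriptome and 0.651 to 0.694 in kidney, where the study lists the same tissue, and 0.175 to 0.346 between brain EC and kidney EC, where all 3 were over 0.1. In the other comparisons they were not all over 0.1.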

Additional observations from a re-analysis of the deposited data

Results flagged for a closer look

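The change from the organ translatome to the endothelial translatome differed between brain and kidney for 8 of the 9 genes, by the interaction term of edgeR at an adjusted p under 0.001. The differences in log2 fold change, brain minus kidney, were 1.26 for Plvap, 5.82 for Mfsd2a, 1.41 for Cav1, 1.53 for Cav2, 2.28 for Ptrf, 1.69 for Ehd2, -2.34 for Ehd3 and 0.85 for Ehd4. They kept their call when any 1 of the 12 libraries was left out and under every other alternative run. The 12 endothelial markers had a median difference of 1.55 in the same fit.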

How the results depend on the processing

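The 9 genes gave 639 tested values under other settings and 648 with 1 library left out. Of these, 621 and 616 kept direction and side of the threshold, 11 and 2 gained a call, 5 and 16 lost one, and 2 and 14 changed sign without being called. In the brain translatome against transcriptome the number of genes called higher was 1 with at least 10 reads in 3 samples and 0 to 3 with 1 library left out, in place of 3. In the kidney comparison the replicate block called 5 higher and 1 lower and the fit of all 21 samples 1 lower, in place of 2 and 0, and the block's pairing is of the same tissue, with infinite prior degrees of freedom in that fit. The replicate block changed no member's call in the other comparisons except for Ptrf in brain. For the interactions the block joined same-numbered libraries of both organs and did not follow the pairing within each organ. With 1 library left out, Ehd3 in brain EC against brain translatome ran from -0.11 to 0.084, and in the organ difference in ribosome association Plvap ran from -0.066 to 0.093, Cav1 from -0.17 to 0.047, Ehd2 from -0.12 to 0.050 and Ehd3 from -0.091 to 0.052. Without a composition factor Ehd3 was at -0.089 in the translatomes and -0.061 in the transcriptomes of brain against kidney, in place of 0.11 and 0.12. Scaling brain EC and kidney EC by the 12 endothelial markers moved the median of all genes by -0.27 and gave 2747 genes higher and 4933 lower, in place of 3876 and 3251, and Cav1 lost its call. Over all genes, no composition factor gave 3397 higher and 6002 lower in brain EC against brain translatome (in place of 4740 and 4084), 1564 and 5655 in kidney EC against kidney translatome (3163 and 2837) and 1183 and 2778 in Emx1-lineage against brain translatome (1749 and 2442), with the same members called. For the Emx1-lineage the number higher was 1116 with the replicate block, 1164 with at least 10 reads in 3 samples and 1110 and 1138 without Emx1-lineage replicates 2 and 1. The block gave 4636 higher and 4860 lower in kidney translatome against transcriptome (2880 and 3049). DESeq2 gave 3410 and 2735 for the difference in EC enrichment (3258 and 1700) and 1128 and 1581 for that in ribosome association (472 and 829), where leaving out 1 library gave as few as 255 higher. The cause of these changes was not tested. Depth limited Mfsd2a in kidney EC most, at 27 to 38 reads per library.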
